A study of Mus musculus with 9 samples.

Results

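Very wide accessible regions were the stretches of at least 2000 bp that remained accessible without a break in an ATAC-Seq library. In ATAC-Seq, the Tn5 transposase cuts open chromatin and the sequenced fragment ends mark where it was open. Overlapping peaks of each library on chromosomes 1 to 19 were merged, merged regions of at least 2000 bp were kept, and the wide regions of the 9 libraries were joined where they shared a base. This gave 1340 very wide regions. They lay in 1334 of the 205801 accessible regions obtained by joining all peaks of the 9 libraries in the same way, and held 3.55 Mb of 97.6 Mb of accessible sequence (3.64%). The regions were chosen by their measured width in these same libraries, so their widths and heights are given as a description, with no test.

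The cells were mouse embryonic fibroblasts (MEFs) with an IRES-EGFP reporter cassette behind the stop codon of Oct4 (Pou5f1), also in the controls, reprogrammed with pMXs retroviruses that carry Oct4, Sox2, Klf4 and c-Myc. The time course held 7 libraries, namely MEFs before induction (D0), day 3 cells (D3), D6T-, D9T-, D12S+, D16S+ and the iPSCs reached at the end. D0 and D3 cells were not sorted, T- denotes cells negative for Thy-1 (a fibroblast surface marker), and S+ denotes cells positive for SSEA-1 (a marker of the pluripotent route). The other 2 libraries were day 6 cells treated with 50 nM siRNA against both H3.3 genes, H3f3a and H3f3b (D6 siH3.3), or non-targeting siRNA (D6 siNT), given at the beginning of reprogramming so that the knockdown was transient and early, which the sample labels give as Thy-1- whereas the library list of the study gives no sorting for them. There was 1 library per condition and no replicates, so no difference below has a replicate check. As a check of the labels, a region lay over a TSS of 6 of 11 fibroblast marker genes at D0 (not Thy1) and 4 in iPSCs, with the most, 10, at D3. It lay over a TSS of 2 of 7 pluripotency marker genes at D0 and of 6 in iPSCs (not Dppa4). The pluripotency markers thus separated D0 from iPSCs more clearly than the fibroblast markers did. The level of H3.3 cannot be read from accessibility, so these files do not check the knockdown.

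As background, most accessible regions are short, the span of an enhancer or of a promoter without a nucleosome. Promoters in CpG islands, where CG dinucleotides have escaped the usual loss by methylation, are open over longer stretches and drive housekeeping genes and many regulators. A peak caller can also return a long region where many reads of repeated or multi-copy DNA are placed or where mitochondrial DNA resembles a nuclear copy. Nuclear copies of mitochondrial DNA are old insertions into chromosomes, and Tn5 readily cuts mitochondrial DNA because it has no nucleosomes.

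Sequences show how different these regions are. All are from mm9 (NCBIM37), 5′ to 3′. The first set is the 200 bases just upstream of a TSS within a very wide region, on the strand of the gene, with each CG in capitals. They are shown because CG content is what most very wide regions shared. Jun lies at chr4:94718914-94719113 (minus strand), Trim28 at chr7:13609301-13609500 (plus strand) and Pou5f1 at chr17:35642782-35642981 (plus strand).
Jun: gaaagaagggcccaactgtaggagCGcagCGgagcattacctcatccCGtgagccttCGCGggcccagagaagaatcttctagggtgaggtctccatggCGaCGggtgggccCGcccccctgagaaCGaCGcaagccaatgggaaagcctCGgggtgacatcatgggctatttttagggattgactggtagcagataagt
Trim28: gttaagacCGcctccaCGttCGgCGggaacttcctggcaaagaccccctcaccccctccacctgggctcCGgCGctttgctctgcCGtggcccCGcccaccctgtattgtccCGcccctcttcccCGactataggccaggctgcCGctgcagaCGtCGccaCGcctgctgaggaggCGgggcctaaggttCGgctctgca
Pou5f1: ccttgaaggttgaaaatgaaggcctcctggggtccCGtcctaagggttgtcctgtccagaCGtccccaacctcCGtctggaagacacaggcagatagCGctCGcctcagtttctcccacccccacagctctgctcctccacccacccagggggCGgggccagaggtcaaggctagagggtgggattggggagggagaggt
These windows held 11 CG in Jun (a subunit of AP-1), 16 in Trim28 (a corepressor of endogenous retroviruses) and 6 in Pou5f1.

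The second set is 120 bases nearest the highest summit of 2 mitochondrial-like regions, with the matching stretch of the mitochondrial genome (chrM) below one of them. Capitals mark bases that differ between region and chrM. The window of Gm10222/Gm10925 (chr1:24620143-24620262) had no differing base, so its chrM stretch (9155 to 9274, minus strand) is the same sequence. The window of Gm11408/Gm11410 (chr4:79648760-79648879) differed at 4 bases from chrM (13014 to 13133, plus strand).
Gm10222/Gm10925: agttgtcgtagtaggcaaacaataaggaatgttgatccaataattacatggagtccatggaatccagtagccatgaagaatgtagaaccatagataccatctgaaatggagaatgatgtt
Gm11408/Gm11410: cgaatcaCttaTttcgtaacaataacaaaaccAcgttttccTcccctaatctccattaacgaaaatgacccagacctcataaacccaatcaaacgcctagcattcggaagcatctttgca
chrM: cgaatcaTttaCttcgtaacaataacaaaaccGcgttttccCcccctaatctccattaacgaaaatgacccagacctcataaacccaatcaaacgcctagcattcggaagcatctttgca

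The third set is 121 bases around the highest summit of 3 further regions, where capitals mark bases in 31-base words that occur again in the genome. They contrast repeated DNA with a unique CpG-rich promoter. Gm10106/Gm10715/Gm10716 lies at chr9:3024419-3024539, the intergenic region near Gm17019 at chr5:15037658-15037778 and Crlf2 at chr5:109985983-109986103, all on the plus strand.
Gm10106/Gm10715/Gm10716: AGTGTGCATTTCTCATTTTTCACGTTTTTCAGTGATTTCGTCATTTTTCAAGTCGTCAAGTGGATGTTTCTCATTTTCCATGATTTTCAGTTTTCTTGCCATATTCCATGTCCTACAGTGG
near Gm17019: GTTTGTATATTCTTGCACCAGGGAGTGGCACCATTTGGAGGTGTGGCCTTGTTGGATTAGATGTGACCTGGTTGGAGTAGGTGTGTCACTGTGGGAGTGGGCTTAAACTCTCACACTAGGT
Crlf2: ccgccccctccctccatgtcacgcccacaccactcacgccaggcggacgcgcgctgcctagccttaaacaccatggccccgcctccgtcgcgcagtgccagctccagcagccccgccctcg
All 121 bases of the first pair were repeated, with a median of 50 copies per word in the first and 7 in the second, and none of the bases of Crlf2 were.

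The number of very wide regions differed widely between libraries. D6T- had 1095 and D3 had 536, against 59 at D0 and 33 at D9T-. The later SSEA-1+ cells lay between these, with 192 at D12S+ and 257 at D16S+, and iPSCs had 106. Both siRNA libraries were near the low end, with 51 for D6 siH3.3 and 72 for D6 siNT, although they were day 6 cells like D6T-. The libraries held from 13213117 (D9T-) to 31714845 (D0) tags. D0, the deepest library, had few wide regions and D6T-, with 21390800 tags, had the most, so the deepest library was not the one with the most, while the shallowest, D9T-, had the fewest. Whether depth has a part in these counts was not tested.

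**Figure D1:**
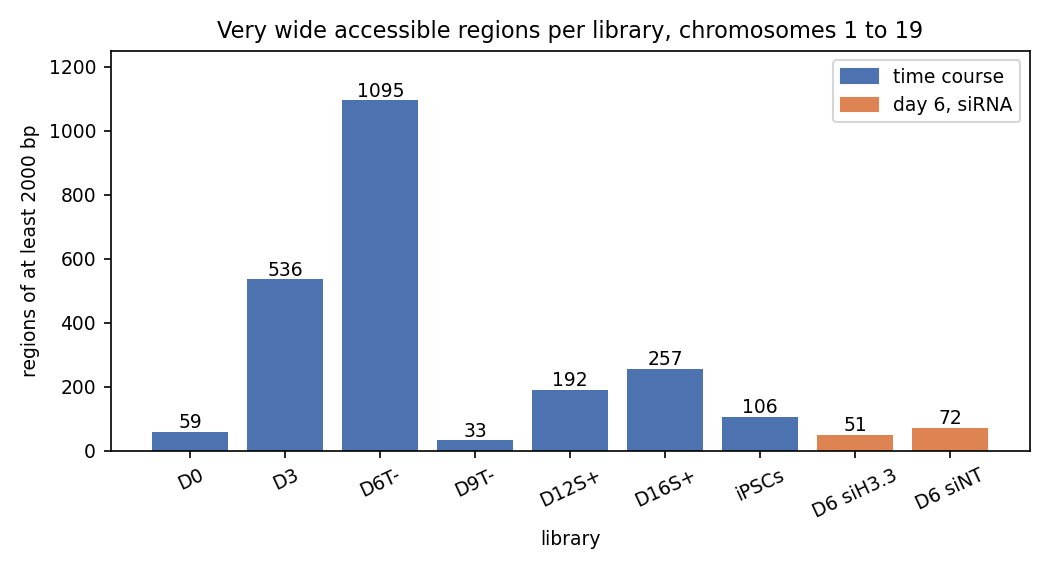
Bars give the number of merged accessible regions of at least 2000 bp on chromosomes 1 to 19 in each of the 9 libraries (1 library per condition). D6T- had 1095, D3 had 536 and every other library had 257 or fewer.

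Most very wide regions were wide in a single library but open in all. Of the 1340, 854 (63.7%) were at least 2000 bp in only 1 library, 258 in 2 and 7 in all 9. D6T- alone accounted for 643 (48.0%), the pair of D3 and D6T- for 174, D3 alone for 133, D16S+ alone for 38 and iPSCs alone for 18. At any width, however, 1187 (88.6%) had a region in all 9 libraries, whereas 12062 (5.86%) of all accessible regions did. Among those 1187, D0 had a median width of 776 bp, D3 of 1838 bp, D6T- of 2231 bp and D9T- of 755 bp. D12S+ followed with 1303 bp, D16S+ with 1385 bp and iPSCs with 1081 bp. The 12062 regions open in all libraries followed the same order of D0 below D3 below D6T-, at 532, 917 and 1127 bp, so the greater width at D6T- was not particular to the very wide ones.

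Width at D6T- was seldom met in the other day 6 cells. Of the 1084 very wide regions that reached 2000 bp at D6T-, 363 also did so at D3, 50 in D6 siNT (4.61%) and 38 in D6 siH3.3. Nearly all were open there, with a region at 1066 in D6 siNT and 1064 in D6 siH3.3, but with median widths of 956 and 913 bp. D6T- and D6 siNT differ in the siRNA, the sorting that the sources give and the library itself, and these cannot be told apart.

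The 2000 bp threshold fell within a continuous range of widths. The median of the greatest width was 2314 bp, 899 of the 1340 were under 2500 bp, 187 reached 3000 bp, 45 reached 4000 bp and 15 reached 5000 bp. Just outside, 328 regions had a greatest width of 1900 to 1999 bp, with a TSS in 82.0% of them and a median CpG ratio of 0.788 at the summit. Just inside, the 275 regions of 2000 to 2099 bp had 85.5% and 0.778. The CpG ratio is the observed number of CG over that expected from the C and G content, here in the 250 bp on each side of the highest summit.

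Very wide regions lay mostly over gene starts. A transcription start site (TSS) of GENCODE vM1 lay within 1113 of 1340 (83.1%, 95% Wilson interval 81.0 to 85.0), against 8.56% of all regions. A further 102 lay in gene bodies and 125 were intergenic. Starts of coding genes on both strands lay within 152 (11.3%), against 0.582% of all regions. A wide region has more room for a TSS, and so the position of the highest summit, which does not depend on width in that way, was compared as well. That summit was within 250 bp of a TSS in 57.2% of very wide regions and 8.11% of all regions, and the median distance was 175 bp against 12923 bp. Among 797 very wide regions with 1 coding start, the region reached a median of 957 bp upstream and 1437 bp downstream of it, and further downstream in 577 (72.4%). As joined over the libraries, these regions thus reached further into the gene than away from it. The same measure was not made for other regions over a TSS, so this is not shown to be particular to the very wide ones.

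Their sequence was that of CpG islands, as in the Trim28 window. The median CpG ratio at the summit was 0.754, against 0.209 for all regions, and it was at least 0.6 in 72.6% against 7.72%. The gap was smaller among regions over a TSS, at 0.792 for the very wide ones and 0.705 for all. Away from TSSs it was 0.297 against 0.197. Within 250 bp of the summit, the letters GGGCGG (the GC box bound by Sp1 and Klf proteins, either strand) were found in 76.2% against 17.7% of all regions, and over TSSs in 84.8% against 66.8%. TGANTCA, the AP-1 site that marks many enhancers of fibroblasts, was less frequent, at 14.5% against 32.1%. Over TSSs it was found in 10.7% and 11.6%. The octamer ATGCAAAT was in 2.54% and 3.32%, and the E-box CACGTG in 13.8% and 8.03%. These are matches of letters within windows of the same length and not bound sites.

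**Figure D2:**
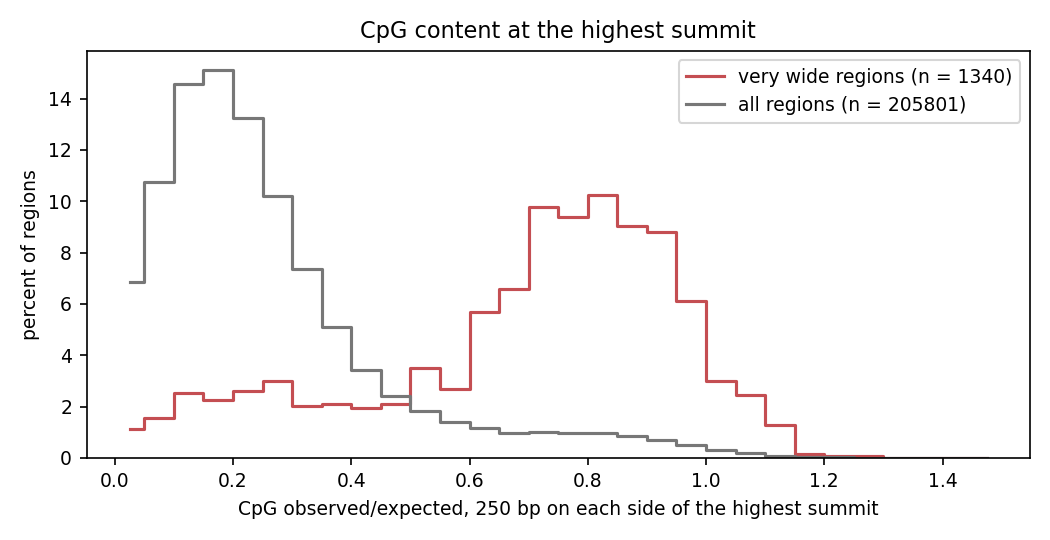
Lines give the percent of regions (vertical axis) by CpG observed over expected in the 250 bp on each side of the highest summit (horizontal axis), for 1340 very wide regions and for all 205801 regions. All regions peaked near 0.2, and most very wide regions lay above 0.6 with a minority below.

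Height was measured as the highest pileup of a region per 1000000 tags of the library (CPM). Here more cells with an open site and a more open site in each cell cannot be told apart. Over the very wide regions called in a library, D0 had a median of 1.04 CPM, D3 of 2.35, D6T- of 4.07 and D9T- of 1.67. D12S+ followed with 2.44, D16S+ with 2.41 and iPSCs with 1.20, and the siRNA libraries had 1.55 (D6 siH3.3) and 1.47 (D6 siNT). The heights thus had the same order at D0, D3 and D6T- as the widths. Regions open in all 9 libraries moved in step with them, at 0.883 CPM at D0, 3.41 at D6T- and 1.09 in iPSCs.

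From D0 to D6T-, 1179 of 1279 very wide regions seen in both (92.2%) were at least 2-fold higher, with a median log2 ratio of 2.07. This was also common among all regions, of which 56% passed 2-fold. Only 9 (0.704%) were at least 2-fold lower, against 0.203%. When each library was scaled by the regions open in all 9, 1157 of 1272 (91.0%) were within 2-fold between D0 and D6T-, against 93.5% of the 12062 scaling regions, which include 1187 of the very wide ones. On that scale 21 were at least 2-fold higher at D6T- and 94 at least 2-fold lower, the opposite balance. From D6T- to iPSCs the median log2 ratio was -1.71, with 1101 of 1291 (85.3%) at least 2-fold lower and 8 (0.620%) at least 2-fold higher, against 52.8% and 1.09% of all regions.

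**Figure D3:**
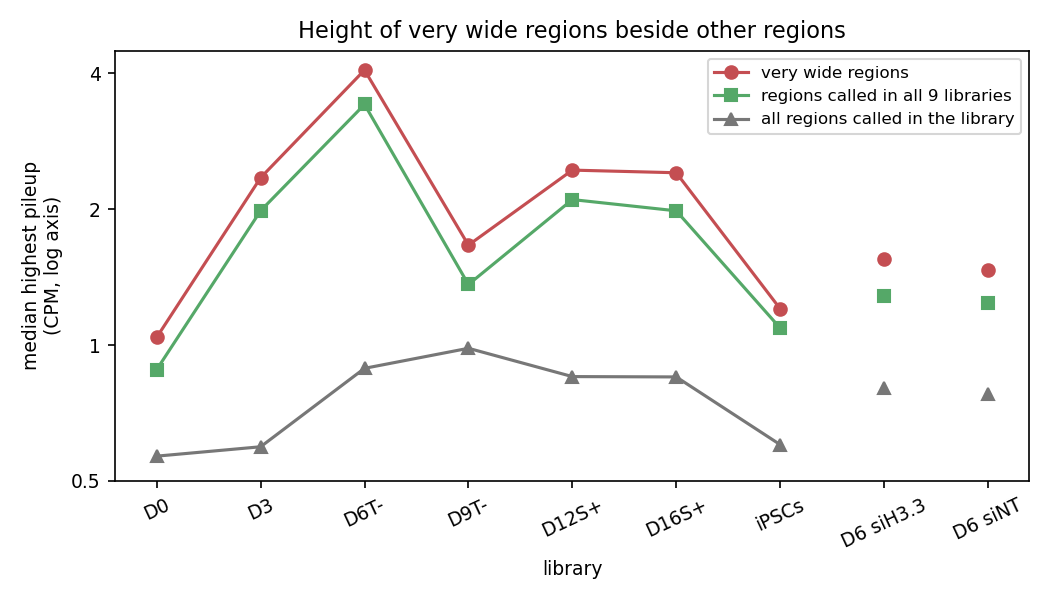
Points give the median of the highest pileup in CPM (log axis) in each library for the very wide regions, for the 12062 regions called in all 9 libraries and for all regions called in that library. Very wide regions had 1.04 CPM at D0, 4.07 at D6T- and 1.20 in iPSCs, and the regions called in all libraries ran in parallel just below.

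Between D0 and iPSCs the heights of very wide regions were close, with a median log2 ratio of 0.33. In iPSCs 128 of 1251 (10.2%) were at least 2-fold higher and 28 (2.24%) at least 2-fold lower, against 8.66% and 2.99% of all regions, shares near the background. Scaled by the regions open in all 9 libraries, 44 were higher and 63 lower, so the balance of the calls turned with the scaling. On that scale 1137 of 1244 (91.4%) were within 2-fold, against 89.9% of the scaling regions. Fmn2, an actin nucleator, had 0.441 CPM at D0 and 2.29 in iPSCs (log2 ratio 2.38), with its highest value of 4.49 at D16S+. Socs6, an inhibitor of cytokine signalling, had 0.851 and 3.08 CPM. In the other direction, a region within Axl, a receptor tyrosine kinase of mesenchymal cells, had 1.64 CPM at D0, 4.21 at D6T- and 0.527 in iPSCs (log2 ratio -1.64). A region in Mapkapk3, a stress kinase, had 2.87 CPM at D0 and 0.828 in iPSCs. A region within Fam20a was 1682 bp at D0, 2455 bp at D6T- and 241 bp in iPSCs, where its height was 0.489 CPM against 1.36 at D0. Conversely, a region within Celf5, an RNA-binding protein, was 200 bp at D0 and 2142 bp in iPSCs, and Fblim1, an adaptor at cell adhesions, was 289 bp and 2475 bp. The low side of several of these was near the lowest pileup called. At D0, where that was 11 tags, Fmn2 had 14, Celf5 15 and Fblim1 15. In iPSCs, where it was 10, Axl had 14 and Fam20a 13. These regions were picked as the largest differences.

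The very wide regions were of several kinds. Classed by sequence and position, 1090 lay over a TSS of another gene than the factors and were not mainly repeated sequence, 174 had no TSS, 69 had repeated 31-base words over at least 50% of their length, 4 lay at the factor genes and 3 were mitochondrial-like. The 69 repeated regions had a median CpG ratio of 0.178, and 14 of them (20.3%) were wide in 5 or more libraries, against 46 (4.22%) of those over a TSS. At D0, where few regions were wide, they were 23 of the 54 very wide regions (42.6%), and at D6T- they were 31 (2.86%). Their median log2 ratio between D6T- and D0 was 0.04, whereas it was 2.12 over TSSs and 1.85 for those with no TSS. This median hides differences within the class, as some repeated regions were far higher at D6T-, such as the one in Sprr2a3 with 1.36 CPM at D0 and 13.1 at D6T-. The methods of the study state that reads mapping to more than 1 locus were removed. Any such reads that were kept can come from any copy. A height there therefore cannot be assigned to 1 place with certainty. In all, 71 very wide regions (5.30%) held at least 50% repeated words, close to 6.11% of all regions. This pooled share hides a split by position. Away from TSSs, 53 of 227 very wide regions (23.3%) were mainly repeated, against 6.40% of all regions there. Over a TSS, 18 of 1113 (1.62%) were, against 2.96%.

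Some very wide regions lay side by side. With gaps of at most 100 kb, 17 groups of at least 4 held 107 of them. The largest group, at chr5:14935462-15186266 around Speer4e and Gm17019, had 17, all of repeated sequence as in the Gm17019 window. Groups of 10 at 2610005L07Rik (chr8:19892350-20024566) and of 8 at Tmem181b-ps and Gm2792 (chr17:6427002-6544936) were also repeated throughout. Groups with no mainly repeated region included 10 at Heatr7b1, Hjurp and Trpm8 (chr1:90108071-90202831) and 7 at Malat1 and Neat1 (chr19:5793066-5847441), the latter a pair of long noncoding RNAs of the nucleus. Further groups were made of adjacent promoters, such as 4 at Dedd2, Zfp526, Erf and Cic (chr7:26003743-26068419) and 4 at Espn, Hes2, Acot7 and Gpr153 (chr4:151504610-151649417), each with a TSS.

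The longest stretches held the extremes of the set. At Sfi1, a gene of the centrosome near the start of chromosome 11, adjacent stretches at chr11:3024745-3049089 and chr11:3049306-3100134 were wide in all 9 libraries. The first measured from 22539 bp in D6 siH3.3 to 24345 bp at D3, and the second from 13234 bp at D12S+ to 34820 bp in iPSCs. Their heights were 4.54 to 9.97 CPM and 8.41 (D6 siH3.3) to 41.4 CPM (D16S+). Gm10106/Gm10715/Gm10716 at chr9:2999869-3038410, shown above as repeated throughout, was 1744 bp at D0, 32938 bp at D3, 26989 bp at D6T- and 38542 bp at D16S+. It was 2513 bp in iPSCs, with heights of 5.71 CPM at D0, 91.6 at D16S+ and 13.2 in iPSCs. It was thus long and high in D3, D6T-, D12S+ and D16S+ and short in the other 5 libraries. AY036118 at chr17:39979788-39985934 was instead of constant width, 6106 to 6147 bp in all 9, with heights from 25.1 CPM at D0 to 97.7 at D16S+. The Heatr7b1 stretch at chr1:90123069-90148475 was longest at D0, with 25407 bp, and was 9468 bp at D3, 1279 bp at D6T- and 7412 bp in iPSCs. Its height stayed between 0.935 CPM (D6T-) and 1.99 (D0), so it was long but low. An intergenic region near AC166252.1 (chr6:47706907-47709850) was absent from the peaks of D0, D9T-, iPSCs and both siRNA libraries, and had 36.9 CPM at D3, 45.2 at D6T-, 39.0 at D12S+ and 41.9 at D16S+. It was present in the same 4 libraries in which the chromosome 9 stretch was long. Another stretch of repeated sequence, near Gpm6a (chr8:56197990-56204098), was 4520 to 5758 bp in those libraries and 280 to 831 bp in the others.

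The stretch over Pou5f1, the reporter gene and a factor of the retroviral mix, stood apart from the other genes. Pou5f1 encodes Oct4, the homeodomain factor that maintains pluripotency. It covered chr17:35634607-35652170 (17564 bp), whereas the gene spans 35642982 to 35647721 on the plus strand with 6 merged exons. It reached 8375 bp upstream of the TSS and 4449 bp past the 3′ end. Its outer edges were nearly the same in all 9 libraries, where starts lay within 85 bp and ends within 119 bp of each other. Peaks covered from 94.5% (D6T-) to 99.8% (iPSCs) of it. In iPSCs it was 1 region of 17521 bp, and in the other libraries it was broken between about 1.1 and 0.4 kb upstream of the TSS, leaving pieces of up to 9402 (D6T-) to 9649 bp (D12S+). It thus spanned the same stretch at D0 as in iPSCs. It was not of the CpG-island kind, with a CpG ratio of 0.185 at its highest summit and the 6 CG in the window shown above.

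Its summits had a median height of 5.08 CPM in D0, and D3 had 4.63, D6T- 2.90, D9T- 3.41, D12S+ 3.41, D16S+ 3.75 and iPSCs 2.78. D6 siH3.3 had 4.07 and D6 siNT 3.81. The median was thus highest at D0 and lowest in iPSCs, whereas very wide regions in general were lowest at D0. Divided by the median height of regions open in all 9 libraries, D0 was still highest with 5.75, but D6T- was lowest with 0.849 and iPSCs had 2.55. Over this broad base, single summits differed between libraries. The highest summit upstream of the TSS lay between -2208 and -1929 bp of it in every library, near the known distal enhancer. D0 had 6.84 CPM there, D3 had 7.81, D6T- 9.21 and D9T- 8.85, then D12S+ had 19.4, D16S+ 26.3 and iPSCs 14.4. The 3 SSEA-1+ and iPSC libraries were thus above the other 6, which include D6 siH3.3 at 6.16 and D6 siNT at 6.47. On the same divided scale, the summit came to 7.75 in D0, with 2.70 for D6T-, 13.3 for D16S+ and 13.2 for iPSCs. Within the exons the highest summit was 24.7 CPM at D3, 259 bp after the TSS in exon 1, against 7.91 at D0, 6.03 at D6T- and 3.72 in iPSCs. The Oct4 vector carries the coding exons of Pou5f1, so after infection reads from vector DNA and from the gene cannot be told apart there. At D12S+ and D16S+ the highest exonic summits, 21.2 and 17.2 CPM, lay 3476 and 3471 bp after the TSS in exon 4. D6T- and iPSCs had a summit at nearly the same place, 3523 and 3530 bp after the TSS and just past the end of that exon, with 18.1 and 10.8 CPM, so their lower exonic values do not mean a lower signal there. Downstream of the gene, the highest summit was 7146 bp after the TSS with 13.1 CPM at D0 and 7194 bp after it with 19.4 CPM at D6T-.

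**Figure D4:**
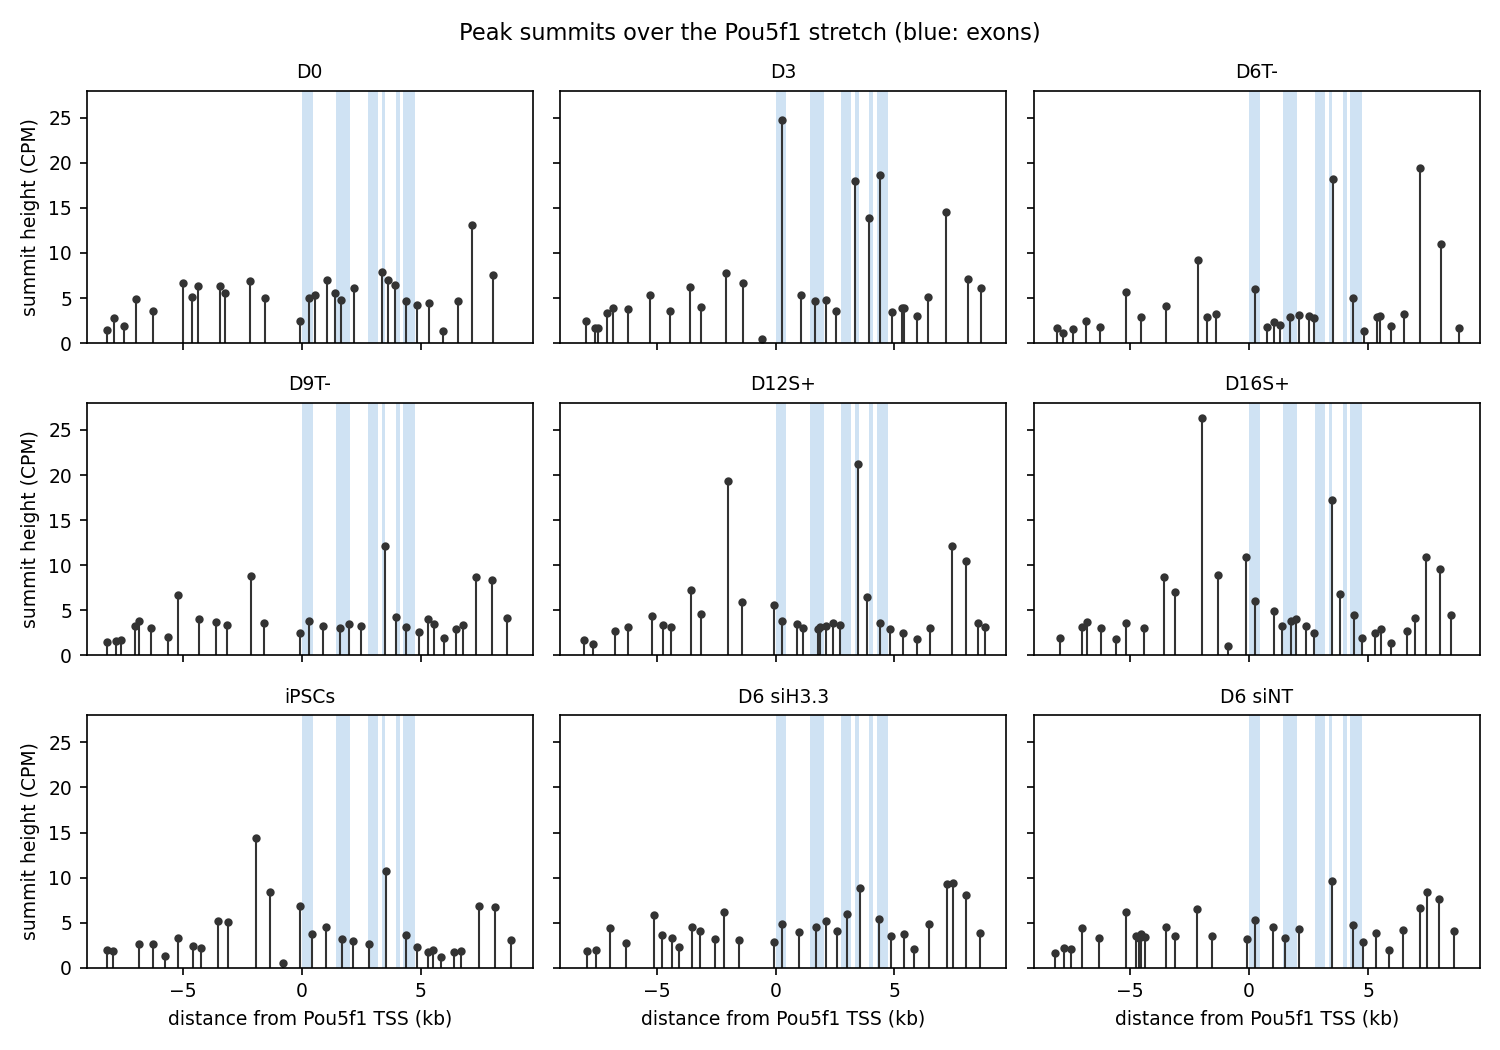
Each panel is 1 library. Lines with points give the height (CPM) of each peak summit in the Pou5f1 stretch by distance from the TSS in kb, and blue bands are exons. Summits fill the whole stretch in all 9 libraries. The summit about 2 kb upstream is tallest at D16S+ (26.3 CPM), and D3 has its tallest summit in exon 1 (24.7 CPM). In exons, reads of the gene and of the vector cannot be told apart.

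The other 3 factor genes were wide in fewer libraries, with the tallest signal within their exons at D3. Sox2 (an HMG-box factor) had no exonic summit at D0, 12.4 CPM at D3, 4.86 at D6T- and 1.20 in iPSCs. Klf4 (a zinc-finger factor) had 0.631, 15.6, 4.72 and 2.26 CPM, and Myc (a growth regulator) had 0.725, 8.37, 3.69 and 1.17 CPM in the same order. Outside the exons the highest summits at D3 were 0.628 CPM at Sox2, 4.30 at Klf4 and 0.695 at Myc. The D3 height of all 3 genes thus came from exons. The vectors carry the coding exons of these genes, so reads from vector DNA and from the genes cannot be told apart there. In width, Klf4 had 464 bp at D0, 2394 bp at D3 and 2336 bp at D6T-, and Myc had 396, 2180 and 2101 bp. Sox2 was wide at other stages, with 2117 bp at D16S+ and 2492 bp in iPSCs against 212 bp at D0.

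Copies of mitochondrial DNA made up 3 of the regions. The region over the pseudogenes Gm10222 and Gm10925 (chr1:24618215-24623185) aligned to chrM over 93.6% of its length at 99.9% identity. Its highest pileup was 460 CPM in D0, and D3 had 474, D6T- 1264, D9T- 2083, D12S+ 1108, D16S+ 1059, iPSCs 799, D6 siH3.3 1099 and D6 siNT 1111. This was 97.3% to 108% of the highest pileup on chrM in the same library, so the region followed chrM closely. Gm13339/Gm13340/Gm13341 (chr2:22442650-22446217) was 97.4% identical over 91.0% of its length, and its 105.9 to 560 CPM were 21.9% to 29.5% of chrM. Gm11408/Gm11410 (chr4:79648293-79650551) was 93.1% identical over 99.9%, and its 18.3 to 72.8 CPM were 3.38% to 4.32% of chrM. The order of heights among the 3 was the order of identity, and the longest run without a differing base was 3067, 175 and 95 bases. In the windows shown above, the chromosome 1 copy cannot be told from chrM and the chromosome 4 copy can be told by its 4 capitals.

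Among protein-coding genes, 1140 of 21418 (5.32%) had a start in a very wide region, which is the background for the gene lists. This share uses 1 start per gene, whereas the lists count a gene if the TSS of any of its transcripts lay in one, a looser rule. Housekeeping and translation genes were frequent, with 8 of 19. Hspa8 (a chaperone) had 1.61 CPM at D0, 9.86 at D6T- and 2.75 in iPSCs, with widths of 834, 2213 and 1284 bp. Ncl (nucleolin) had 1.10, 9.40 and 2.18 CPM, and Actg1 (cytoplasmic actin) was 885 bp at D0, 3742 bp at D6T- and 1087 bp in iPSCs. Actb, Gapdh, Eef1a1, Hsp90ab1 and Ubb completed the list. The 9 regions of these 8 genes all reached 2000 bp at D6T- and none at D0, D9T- or in the siRNA libraries. Of all 1340 very wide regions, 1084 did so at D6T-, 54 at D0 and 23 at D9T-. In the siRNA libraries 42 (D6 siH3.3) and 60 (D6 siNT) did, so this is not shown to be particular to these genes.

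Of genes of the cell cycle and growth, 6 of 16 had one, among them Ccnd2, Cdk6, E2f1, Akt1 and Trp53. Ccnd2 (a D-type cyclin) was 3954 bp at D6T- and 342 bp in iPSCs. Cdk6, its kinase partner, had no peak at D0 and was 2973 bp at D6T- and 2786 bp at D16S+. E2f1 was 2673 bp at D6T-, Akt1 3011 bp at D3 and Trp53 (p53) 2196 bp at D16S+ alone.

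Of immediate early genes, which respond to serum and stress within minutes, 6 of 24 had one. Jun was 1148 bp in D0, and D3 had 3191, D6T- 3272, D9T- 1351, D12S+ 2669, D16S+ 3220 and iPSCs 2310 bp, with 1589 in D6 siH3.3 and 1804 in D6 siNT. Jun was therefore wide in 5 of 9 libraries, whereas Cyr61 (a matrix protein) was wide at D6T- only, with 2128 bp. Jund, Egr1, Ier2 and Dusp1 were wide in 2 to 4 libraries. All 6 were wide at D6T-, and 4 at D3 and 4 at D16S+, where 1084, 523 and 249 of all 1340 were.

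Of chromatin genes, 6 of 19 had one, among them the H3.3 chaperones Hira, Daxx and Ubn1, a subunit of the Hira complex. Hira was 780 bp at D0, 2080 at D3, 2331 at D6T-, 2073 at D12S+ and 1750 in iPSCs, with 1166 in D6 siH3.3 and 1006 in D6 siNT. Daxx and Ubn1 were wide at D6T- alone, at 2304 and 2314 bp. Brd2, a reader of acetylated histones, was the widest of the list, with 1185 bp at D0, 4976 at D3, 4269 at D6T-, 4136 at D12S+, 3559 at D16S+ and 1277 in iPSCs. Dnmt3a (a DNA methyltransferase) and Arid1a (a remodeller subunit) were wide at D3 alone.

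Fibroblast and mesenchymal genes had one in 9 of 31, namely Vim, Twist1, Snai2, Cdh2, Cdh11, Thbs1, Tgfb1, Meis1 and Tbx18. Their 10 regions were wide at D6T- in 9 cases and at D3 in 5, and in none at D0, D16S+ or in iPSCs. Of all 1340 very wide regions, 1084 were wide at D6T-, 523 at D3, 54 at D0, 249 at D16S+ and 98 in iPSCs. The counts of these 10 are thus not shown to be particular to fibroblast genes. Vim, an intermediate filament, was 1308 bp at D0, 2454 at D6T-, 2519 at D12S+, 1520 at D16S+ and 1485 in iPSCs. Twist1, a mesenchymal regulator, was 1025 bp at D0, 2127 at D6T- and 390 in iPSCs, but its height was 0.788 CPM at D0 and 0.865 in iPSCs. Cdh11, a mesenchymal cadherin, was 3491 bp at D6T- and 403 bp in iPSCs. Narrow regions remained at all of them in iPSCs except the second region of Thbs1.

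Pluripotency genes had one in 4 of 27, namely Tbx3, Mycn, Trim28 and Jarid2. At D16S+ 3 of these were wide, as were 249 of all 1340 very wide regions. Mycn, a Myc relative active in pluripotent cells, was 508 bp in D0, with 1022 in D6T-, 2415 in D16S+ and 871 in iPSCs. Trim28 was 689 bp in D0, with 2654 in D6T-, 2481 in D16S+ and 2100 in iPSCs, and 2155 bp in D6 siNT against 932 in D6 siH3.3. The height of Trim28 was not lower after knockdown, with 1.97 CPM in D6 siNT and 2.20 in D6 siH3.3. The markers that define pluripotent cells, among them Nanog, Esrrb and Zfp42, had none (0 of 7). Of 12 epithelial genes 1 had one. This was Esrp1, a splicing regulator of epithelial cells, with no peak at D0 or D3, 763 bp at D6T-, 1217 at D12S+, 2120 at D16S+ and 1062 in iPSCs. Id, BMP and Hox regulators had 1 of 35 (Id4, 2141 bp at D6T-), or 2.86% against the background share of 5.32%. With so few genes listed, neither this nor the 0 of 7 can be read as below the background.

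Of 10 abundant noncoding RNAs, Malat1 and Neat1 had one. Neat1, the scaffold of paraspeckles, was 834 bp in D0, and D3 had 1125, D6T- 14212, D9T- 6712, D12S+ 2128, D16S+ 2313 and iPSCs 656 bp, with 1759 in D6 siH3.3 and 2428 in D6 siNT. Its height was 0.757 CPM at D0 and 4.91 at D6T-. Malat1 was 465 bp at D0, 1730 at D3, 4118 at D6T-, 1103 at D9T- and 249 in iPSCs, with no peak in either siRNA library. Both were thus longest at D6T-, and the CpG ratio at the summit was 0.39 for Neat1 and 0.12 for Malat1.

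**Figure D5:**
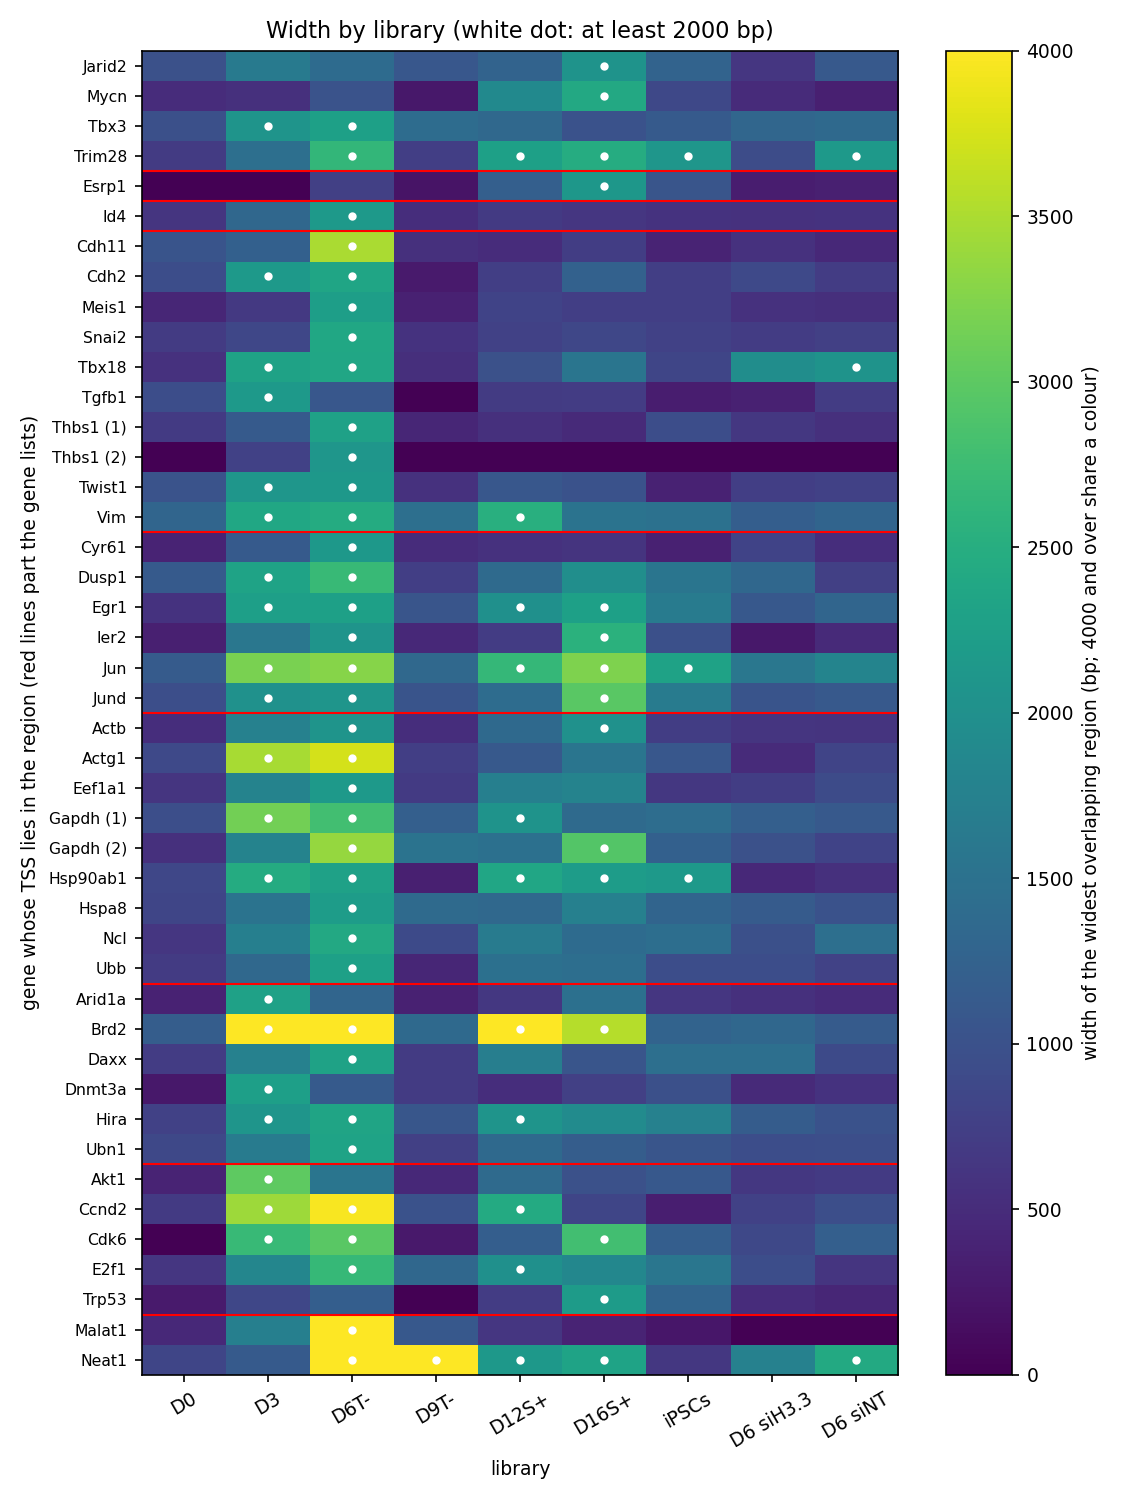
Colour gives the width (bp) of the widest region of each library at very wide regions over a TSS of a listed gene, with red lines between the gene lists and white dots at 2000 bp or more. Dots gather at D3, D6T- and D16S+, and none of the genes shown has one at D0.

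Knockdown of the histone variant H3.3, which is placed into chromatin outside replication at active genes, was compared with D6 siNT. Very wide regions hardly differed in height, with a median log2 ratio of 0.07 over 1280 seen in both, and 0.08 over all regions. In D6 siH3.3, 4 (0.313%) were at least 2-fold higher and 3 (0.234%) at least 2-fold lower, against 1.15% and 0.439% of all regions, so neither share exceeded the background. After scaling by the regions open in all 9 libraries, 1264 of 1273 (99.3%) were within 2-fold, against 99.01% of the scaling regions. In width, 548 were wider and 730 narrower in D6 siH3.3, which had 18669683 tags against 21784047 in D6 siNT. The 12062 regions open in all 9 libraries also had a lower median width in D6 siH3.3, at 583 bp against 612 bp. Whether depth has a part in this was not tested. The 4 higher regions lay within Sprr2a3 (37 tags at the summit in D6 siH3.3 and 17 in D6 siNT), near 1700011L22Rik (49 and 26), at Crim1 (31 and 17) and at Wbscr17 (18 and 10). The 3 lower ones lay near Gm17444 (13 and 32), near Synpo (9 and 22) and at Fam53b (8 and 19). These are small tag numbers, the Sprr2a3 region is 96.0% repeated sequence, and with 1 library a side no test of these differences is possible.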

How the data were processed

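Peak files of 9 ATAC-Seq libraries, 1 per condition, were used. The authors aligned 51 bp reads to mm9 with STAR and removed duplicates with Picard. Peak calling by MACS2 (2.1.0.20151222) used no control, a q-value cutoff of 0.05, tags lengthened to 200 bp and no local background. The deposited pileup of a summit is a signal that counts lengthened tags there and is not scaled for depth. The deposited fold enrichment is a ratio of this pileup to evenly spread tags, and p and q are deposited as −log10. Fold enrichment and p were not used in a comparison, and q only ranked the peaks for the alternative with an equal number of peaks. The methods state that mitochondrial reads were removed, but every file holds peaks on chrM. They also state that reads mapping to more than 1 locus were removed. Peaks nevertheless lie in repeated sequence and in a nuclear copy nearly identical to chrM. How such reads were handled in these files was not tested.

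Overlapping peaks of a library on chromosomes 1 to 19 were merged, and regions of at least 2000 bp were joined over libraries where they shared a base. Height is the highest pileup per 1000000 tags (CPM), with tags taken from the file headers, and width is that of the widest overlapping region. Long regions arise more readily where more tags lie, and extension to 200 bp fills short gaps, so width and height are not independent. Genes were those of GENCODE vM1 on mm9 (NCBIM37, counted from 1), repeated sequence was measured as 31-base words found again in the genome, and mitochondrial copies were found with blastn 2.17.0+ (at least 80% identity and 100 bases, over 50% of a region). A change was called at 2-fold. The genes named are those of the gene lists, the 12 widest and 6 highest regions, the 3 widest of each library and the 5 with the largest differences each way between D0 and iPSCs and between the siRNA libraries. The regions and gene lists were chosen with earlier results of these data known. No condition has a replicate, so no test was made, and the Wilson interval (95%) holds the sampling of regions only. Alternatives were other width limits (1500 and 3000 bp), gaps of 200 bp, equal height or number of peaks, another scaling, the mean over summits and leaving libraries out. The software was matplotlib 3.10.9, numba 0.67.0, pysam 0.24.0, scipy 1.17.1, pandas 2.3.3 and numpy 2.4.6 under Python 3.11.15, and the functions were tested on simulated data. A few regions and a sequence that the rule would name are not reported here.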

Additional observations from a re-analysis of the deposited data

Results flagged for a closer look

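Signal was also found on sequences that the comparisons do not use. On chromosome X, 15 wide regions of at least 2000 bp were found when joined over libraries, and on sequences not placed on a chromosome there were 13. The longest of these on X spanned 20480 bp (chrX:166426504-166446983) and was found in 5 libraries. The mitochondrial chromosome was 1 accessible region over its whole length in 9 of 9 libraries. No library without these signals was available as a control, and their source was not tested.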

How the results depend on the processing

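The number of wide regions depended on the width limit and on how peaks were merged, while D6T- and then D3 had the most under each of these. At 1500 bp, the counts were 194 (D0), 1891 (D3), 3505 (D6T-), 119 (D9T-), 769 (D12S+), 966 (D16S+), 540 (iPSCs), 247 (D6 siH3.3) and 280 (D6 siNT), and 4171 when joined. At 3000 bp they were 24, 82, 151, 13, 26, 40, 16, 15 and 19, and 187 joined. With peaks up to 200 bp apart merged, they were 119, 925, 1720, 50, 329, 442, 257, 110 and 129, and 2154 joined. Without the D6T- library, an alternative chosen after seeing the data, 699 remained. The share over a TSS was 55.1% by the midpoint within 3 kb upstream, and, chosen after seeing the data, 77.3% by a summit within 1 kb and 86.3% without repeated sequence. The CpG ratio over the whole region was 0.681, against 0.754 in the 500 bp around the summit and 0.699 over the whole region without those wide at D6T- alone. Scaled by the regions open in all 9 libraries, median heights were 1.85 (D0), 1.86, 1.87, 1.92, 1.83, 1.91, 1.74 (iPSCs), 1.90 and 1.86 (D6 siNT), so the differences in height between libraries were not present on that scale. As the mean over summits they were 0.784, 1.32, 2.07, 1.29, 1.57, 1.51, 0.865, 1.12 and 1.06 CPM. For D6 siH3.3 against D6 siNT, the scaled median log2 ratio was 0.018, with 5 at least 2-fold lower, and the mean over summits gave 12 higher and 9 lower. The other alternatives, such as equal height or number of peaks, leaving out D9T- or adding X and Y, changed these values little. Equal height and number keep the strongest peaks, of which wide regions are made, and so bear little on depth. Openings below 0.530 CPM were not detectable in the shallowest library, D9T-. No paired analysis was possible because each condition has 1 library.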
